A study of Danio rerio with 15 samples.

Results

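The genes described here are irg1l and 9 other genes of acute inflammation (il1b, mmp9, mmp13a, ptgs2a, ptgs2b, cxcl8a, saa, socs3a and socs3b), measured by RNA sequencing in zebrafish embryos exposed to short-chain per- and polyfluoroalkyl substances (PFAS). They were taken by exact symbol from the gene counts, as 10 of 47048 gene entries, and none of them had a second entry with a numbered suffix. Of the 10, 9 passed the filter on low counts that left 23874 genes for testing, and saa did not. The genes were picked with their levels in the embryos exposed to FBSA already known, and with the high levels in the libraries PFPeA 1 and 42FTS 2 known too. Values that set FBSA against another group are therefore a description without a test. Tests of PFPeA and 42FTS include the libraries PFPeA 1 and 42FTS 2, so their p-values for these genes are not free of the choice either. The same holds for PFBS, since all 15 libraries share 1 estimate of the spread of a gene.

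Whole embryos of the Tropical 5D wild-type strain were exposed from 8 hours post fertilization (hpf) and sampled at 48 hpf. The groups were FBSA (a sulfonamide on a perfluorobutyl chain), PFBS (the sulfonic acid on the same chain), PFPeA (a perfluorinated carboxylic acid) and 42FTS (a fluorotelomer sulfonic acid), each at 47 uM, and Control at 0 uM. The protocol gives 0.5% methanol for exposures of 0 or 47 uM, while the sample label of the controls reads untreated. Each group had 3 libraries, each made from a pool of 10 embryos. Whether the pools stem from different clutches is not in the labels, so a p-value covers only the spread among these pools. RNA of a whole embryo is a mixture, so more cells of a type and more RNA per cell cannot be told apart.

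Inflammation in zebrafish is led by neutrophils and macrophages, which are active in embryos before adaptive immunity develops, and by the skin, which signals damage to them. Irg1 enzymes make itaconate, an antibacterial and immune-regulating metabolite, from an intermediate of the citric acid cycle. In zebrafish irg1l is known from epidermal cells responding to infection and injury, where it has been tied to production of matrix metalloproteinases. Il1b is a cytokine that starts inflammatory signalling, Cxcl8a a chemokine that draws neutrophils, Mmp9 and Mmp13a enzymes that cut matrix proteins, Ptgs2a and Ptgs2b forms of cyclooxygenase 2 that start prostaglandin synthesis, Saa an acute-phase protein, and Socs3a and Socs3b feedback inhibitors of JAK-STAT cytokine signalling.

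Reads counted in genes came to 24249287 in 42FTS 2 and 24552649 in Control 3, and to between 31853175 and 32686343 in the other 13 libraries. The share of reads that stayed unaligned was 9.94% in 42FTS 2 and 9.92% in Control 3, and lay between 6.32% and 6.73% elsewhere. 42FTS 2 is also 1 of the pair of libraries with high levels of several of the genes below; the other of that pair, PFPeA 1, had 6.65% of reads unaligned. The part of read quality in these levels was not tested. Levels are counts scaled to a common library size by the trimmed mean of M-values (TMM-scaled CPM), and compare 1 gene across libraries, not genes with each other.

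irg1l was high in every FBSA library and near the control level in most others. Its level was 42.1, 88.3 and 39.8 CPM in FBSA 1, 2 and 3. It was 5.71, 6.92 and 5.19 CPM in the PFBS libraries (PFBS 2, a and b), 11.2, 6.48 and 5.18 CPM in PFPeA 1, 2 and 3, and 6.04, 14.6 and 5.10 CPM in 42FTS 1, 2 and 3. The Control libraries had 6.46, 6.06 and 4.01 CPM. The lowest FBSA library stood above the highest of the other 12, which was 42FTS 2, and FBSA 2 was higher than both other FBSA pools by more than 2-fold. Among the acids, 42FTS 2 and PFPeA 1 were the only libraries above the highest control by more than 1 CPM.

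In group means the order for irg1l was FBSA at 56.7 ± 27.3 CPM, 42FTS at 8.57 ± 5.22, PFPeA at 7.64 ± 3.19, PFBS at 5.94 ± 0.887 and Control at 5.51 ± 1.31 CPM (SD, n = 3 each). The ranges of FBSA and 42FTS did not overlap, and those of every later pair of neighbours in this order did. The fitted log2 fold change of FBSA against Control was 3.36 (95% confidence interval 2.30 to 4.41), a 10.2-fold higher level. It was 2.89 when FBSA 2 was left out and did not go beyond 3.56 when any other single library was.

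**Figure D1:**
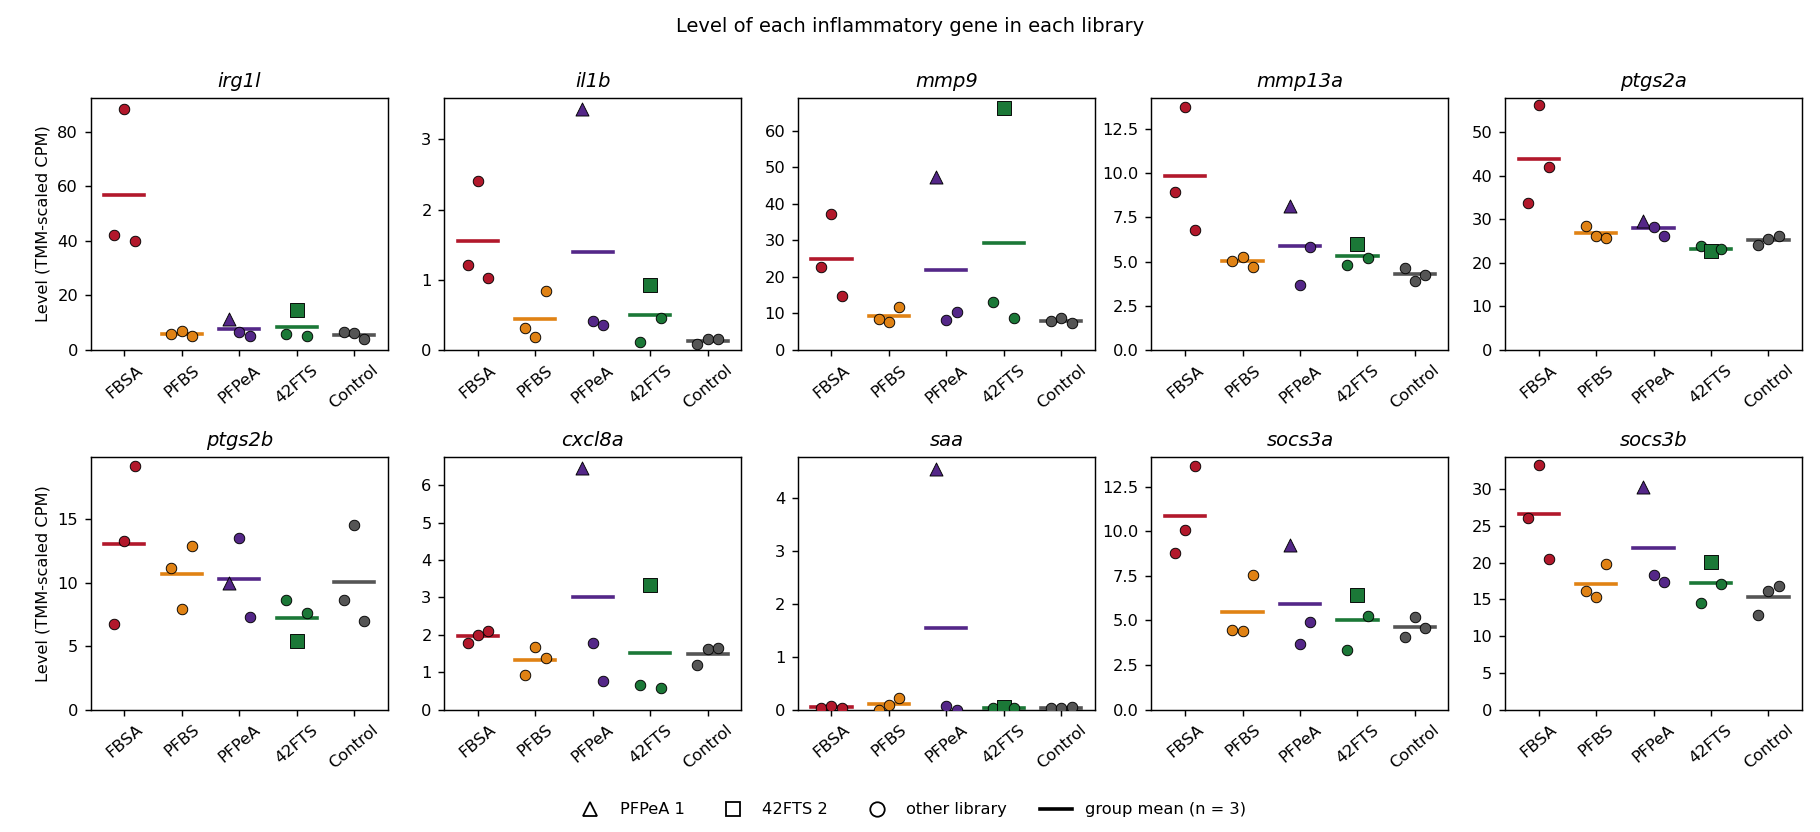
Level of each of the 10 genes in TMM-scaled CPM (vertical axes from 0, each with its own scale) in the 5 groups. Points are libraries, triangles mark PFPeA 1, squares mark 42FTS 2, and bars are group means of 3 libraries. irg1l is separated between FBSA (39.8 to 88.3 CPM) and all other libraries (up to 14.6 CPM), while the highest mmp9, il1b, cxcl8a and saa points are PFPeA 1 or 42FTS 2.

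FBSA and PFBS share their fluorinated chain and differ in the group at its end, a sulfonamide in FBSA and a sulfonic acid in PFBS. At the same dose and time, irg1l averaged 56.7 CPM with FBSA and 5.94 CPM with PFBS, a log2 difference of 3.26 (95% CI 2.21 to 4.31). The log2 difference was 2.89 (95% CI 1.86 to 3.92) for FBSA against PFPeA and 2.74 (95% CI 1.72 to 3.76) for FBSA against 42FTS. All 10 pairs of groups were compared, with p-values adjusted in each pair over all genes. No irg1l difference among the acids passed edgeR's quasi-likelihood test: PFPeA against PFBS gave a log2 difference of 0.36 (95% CI -0.65 to 1.38, adjusted p = 0.998), 42FTS against PFBS gave 0.52 (95% CI -0.50 to 1.53, adjusted p = 0.988) and PFPeA against 42FTS gave -0.15 (95% CI -1.16 to 0.85, adjusted p = 0.966). These intervals still allow an irg1l level more than 2-fold lower in PFPeA than in 42FTS, and more than 2-fold higher in PFPeA or 42FTS than in PFBS.

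Among the genes of inflammatory signals, il1b was low everywhere and was above the controls in each exposed group's mean. It had 1.21, 2.41 and 1.03 CPM in FBSA 1, 2 and 3, 0.317, 0.189 and 0.839 CPM in PFBS 2, a and b, 3.43, 0.411 and 0.354 CPM in PFPeA 1, 2 and 3, and 0.119, 0.923 and 0.461 CPM in 42FTS 1, 2 and 3. The Control libraries had 0.0918, 0.152 and 0.161 CPM, which rest on 3, 5 and 4 reads. The highest library of all 15 was PFPeA 1, with 111 reads, and every library of FBSA, PFBS and PFPeA was above every control. The log2 fold change of FBSA against Control, 3.50, had a wide 95% CI of 1.33 to 5.66. Its SE was 1.00 with the spread estimated from all 15 libraries, and 0.67 without PFPeA 1 and 42FTS 2. For PFPeA against Control the log2 fold change was 3.35 (SE 1.01). Its unadjusted p was 0.00515 and its adjusted p was 0.955 by edgeR's quasi-likelihood test. Without PFPeA 1 that log2 fold change was 1.49.

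The chemokine gene cxcl8a differed little between FBSA and Control: it had 1.78, 2.00 and 2.09 CPM in FBSA 1, 2 and 3, against 1.19, 1.61 and 1.65 CPM in the controls. The groups did not overlap, but the log2 fold change was 0.40 (95% CI -1.17 to 1.97). The SE of this value was 0.72 in the fit of all 15 libraries and 0.33 without PFPeA 1 and 42FTS 2. The high values of cxcl8a were elsewhere. PFPeA 1 had 6.46 CPM, against 1.77 and 0.772 CPM in PFPeA 2 and 3. 42FTS 2 had 3.33 CPM, against 0.655 and 0.584 CPM in 42FTS 1 and 3. PFBS had 0.920 to 1.67 CPM. Both high libraries exceeded every FBSA and every Control library.

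The acute-phase gene saa was close to absent except in 1 library. PFPeA 1 had 147 reads (4.54 CPM), while PFPeA 2 and 3 had 2 and 0 reads. FBSA libraries had 1, 2 and 1 reads, PFBS libraries 0, 3 and 7, 42FTS libraries 1 each, and Control libraries 1 each. Only PFPeA 1 and PFBS b were above 3 reads, so no fold change between groups is given.

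The matrix metalloproteinase genes differed from each other in which libraries were high. mmp9, which encodes a gelatinase that leukocytes and wounded skin release, had 22.8, 37.2 and 14.8 CPM in FBSA 1, 2 and 3, against 7.92, 8.74 and 7.35 CPM in the controls. It had 8.38, 7.73 and 11.8 CPM in PFBS 2, a and b. It reached 47.4 CPM in PFPeA 1, against 8.19 and 10.5 CPM in PFPeA 2 and 3, and 66.1 CPM in 42FTS 2, against 13.1 and 8.88 CPM in 42FTS 1 and 3. Thus all FBSA libraries were above all controls, yet the highest mmp9 levels of the study were in 1 library each of PFPeA and 42FTS. In group means the order was 42FTS at 29.4 ± 31.9 CPM, FBSA at 24.9 ± 11.3, PFPeA at 22.0 ± 22.0, PFBS at 9.30 ± 2.18 and Control at 8.00 ± 0.702 CPM (SD, n = 3 each), and every pair of neighbours overlapped.

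For mmp9 the log2 fold change against Control was 1.64 (SE 0.84) for FBSA, 1.86 (SE 0.84) for 42FTS, 1.46 (SE 0.83) for PFPeA and 0.21 (SE 0.84) for PFBS. By edgeR's quasi-likelihood test the adjusted p was 0.997 for 42FTS, with an unadjusted p = 0.0498, 0.977 for PFPeA and 0.999 for PFBS. All 15 libraries share 1 estimate of the spread of a gene, so PFPeA 1 and 42FTS 2 enter the SE of every compound. Without both of them the mmp9 value was 1.64 (SE 0.31) for FBSA and 0.21 (SE 0.31) for PFBS. Leaving out 42FTS 2 brought the 42FTS value to 0.46, and leaving out PFPeA 1 brought the PFPeA value to 0.22. mmp13a, a collagenase gene, was more even. It had 8.92, 13.8 and 6.80 CPM in FBSA 1, 2 and 3, 4.71 to 5.28 CPM in PFBS, 8.16, 3.70 and 5.82 CPM in PFPeA 1, 2 and 3, 4.82 to 5.98 CPM in 42FTS and 3.93 to 4.65 CPM in Control. Its log2 fold change for FBSA against Control was 1.2 (95% CI 0.64 to 1.76). In 42FTS 2, which had the highest mmp9, mmp13a was at 5.98 CPM, against 5.01 CPM on average in 42FTS 1 and 3.

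**Figure D2:**
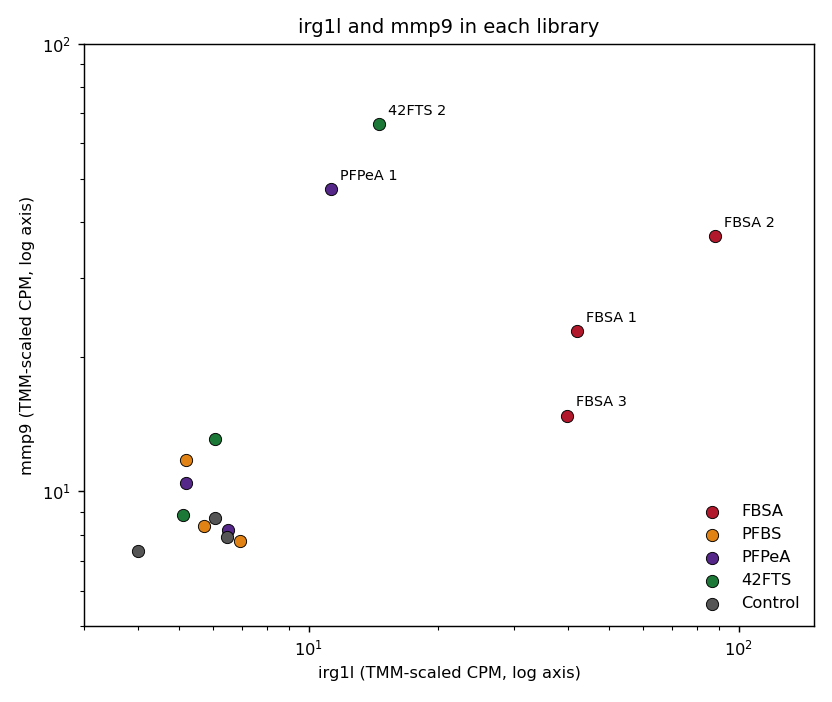
Levels of irg1l (horizontal) and mmp9 (vertical) in each of the 15 libraries, both in TMM-scaled CPM on log axes, coloured by group. FBSA libraries have the highest irg1l (39.8 to 88.3 CPM) with mmp9 at 14.8 to 37.2 CPM, whereas PFPeA 1 and 42FTS 2 have the highest mmp9 (47.4 and 66.1 CPM) with irg1l at 11.2 and 14.6 CPM.

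The pair of cyclooxygenase 2 genes also parted. ptgs2a had 33.7, 56.2 and 41.9 CPM in FBSA 1, 2 and 3, 28.5, 26.1 and 25.7 CPM in PFBS 2, a and b, 29.6, 28.1 and 26.2 CPM in PFPeA 1, 2 and 3, 23.9, 22.7 and 23.2 CPM in 42FTS 1, 2 and 3, and 24.0, 25.4 and 26.1 CPM in the controls. Every FBSA library was above every other library, and the rest lay within a narrow band in which neither PFPeA 1 nor 42FTS 2 stood apart. The log2 fold change for FBSA against Control was 0.81 (95% CI 0.53 to 1.08). ptgs2b ranged from 6.73 to 19.2 CPM in FBSA and from 6.94 to 14.5 CPM in Control, so these groups overlapped, with a log2 fold change of 0.38 (SE 0.38). Its range was 7.92 to 12.9 CPM with PFBS, 7.30 to 13.5 CPM with PFPeA and 5.42 to 8.63 CPM with 42FTS.

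The feedback inhibitor genes socs3a and socs3b were higher in FBSA than in Control in every library. socs3a had 8.76, 10.1 and 13.6 CPM in FBSA 1, 2 and 3, against 4.04, 5.21 and 4.58 CPM in the controls, and its log2 fold change was 1.23 (95% CI 0.51 to 1.95). socs3b had 26.1, 33.3 and 20.5 CPM in FBSA 1, 2 and 3, against 12.9, 16.1 and 16.8 CPM in the controls, and its log2 fold change was 0.80 (95% CI 0.32 to 1.29). In both genes the FBSA and Control libraries did not overlap. PFPeA 1 again lay in the FBSA range, with 9.24 CPM for socs3a and 30.2 CPM for socs3b, against 3.70 to 4.89 and 17.3 to 18.3 CPM in PFPeA 2 and 3. PFBS ranged from 4.40 to 7.52 CPM for socs3a and 15.3 to 19.8 CPM for socs3b, and 42FTS from 3.33 to 6.42 CPM for socs3a, with socs3b lowest at 14.5 CPM in 42FTS 1 and highest in 42FTS 2.

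**Figure D3:**
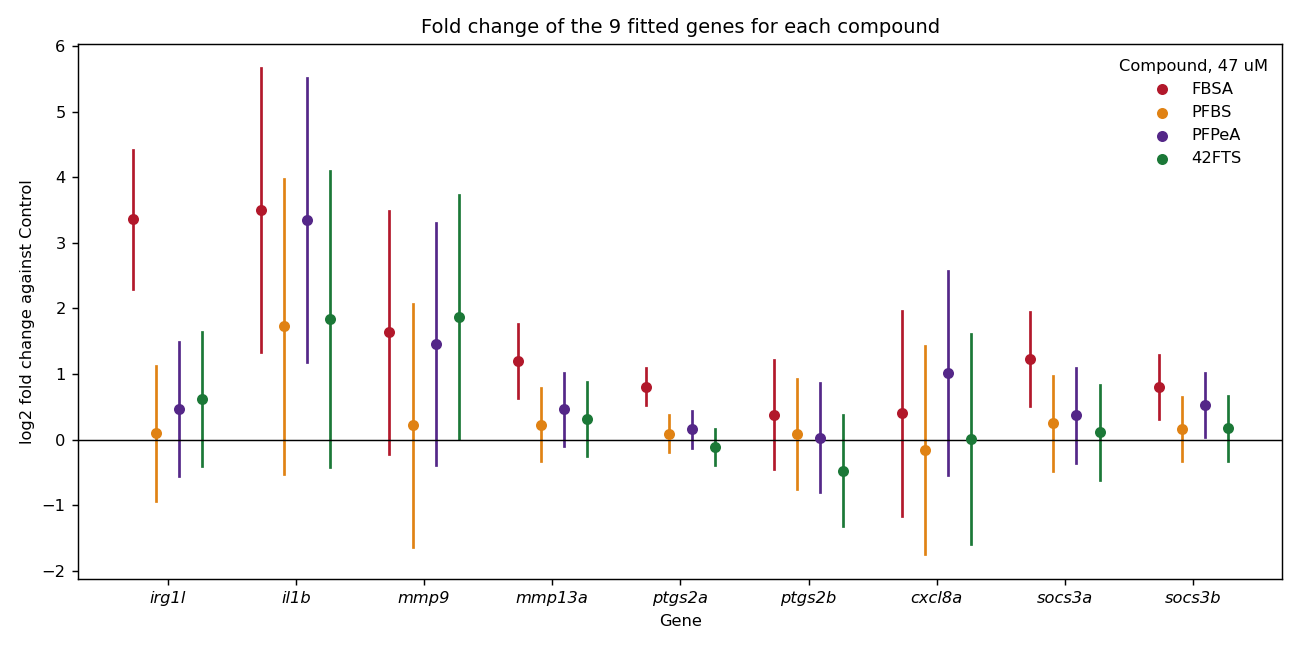
Fitted log2 fold change of FBSA, PFBS, PFPeA and 42FTS against Control for the 9 genes that passed the low-count filter, with 95% confidence intervals from 3 libraries a group. The FBSA intervals of irg1l (2.30 to 4.41) and ptgs2a (0.53 to 1.08) lie apart from those of the acids, and the intervals of il1b, mmp9 and cxcl8a are wide for every compound.

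The number of these genes past the threshold of 0.05 on edgeR's adjusted p is given beside the share of all 23874 genes past it. For FBSA against Control it was 6 of 9, all higher (irg1l, il1b, mmp13a, ptgs2a, socs3a and socs3b), where 9.53% of all genes passed (5.28% higher, 4.25% lower); since FBSA levels chose the genes, nothing is read from the difference. DESeq2 called the same 6, where 14.7% of all genes passed its threshold. The count went as low as 2 without FBSA 2, and was 3 without Control 1, Control 2 or Control 3 in turn. Over all genes edgeR called 1020, 1296, 1309 and 1430 in these fits, in the same order, against 2274 with all libraries. irg1l and ptgs2a were called in all 15 fits that left out 1 library. FBSA against PFBS gave 3 genes (irg1l, mmp13a and ptgs2a), where 5.17% of all genes were higher, FBSA against PFPeA gave 2 (irg1l and ptgs2a), where 4.08% were, and FBSA against 42FTS gave the same 3 as against PFBS, where 5.69% were. With PFPeA 1 left out these became 5 genes against PFBS, 4 against PFPeA and 5 against 42FTS. Over all genes, in either direction, edgeR then called 2451, 1688 and 2336 of 24406, against 2423, 1971 and 2339 of 23874 with all libraries. The cause was not tested. The comparisons share libraries and are not separate evidence.

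For each of the 3 acids against Control, and for each pair of acids, edgeR called 0 of the 9 genes and 0 of all 23874, a share of 0%. DESeq2 also called none of the 9 there, and 6 (0.0174%), 15 (0.0709%) and 14 (0.0542%) genes in all for PFBS, PFPeA and 42FTS against Control. At an unadjusted p under 0.05 edgeR gave 925, 1243 and 972 genes for PFBS, PFPeA and 42FTS against Control. The genes described here among them were none for PFBS, il1b and socs3b for PFPeA, and mmp9 for 42FTS. The unadjusted p of socs3b was 0.037 and its adjusted p was 0.955, with a log2 fold change of 0.52 (SE 0.23) and all 3 PFPeA libraries above all 3 controls. The median log2 fold change of the 9 was 1.2 for FBSA, 0.16 for PFBS, 0.46 for PFPeA and 0.17 for 42FTS, against medians over all genes between -0.01 and 0.01. By library, their median log2 difference from the Control mean was 1, 0.259 and 0.0917 in PFPeA 1, 2 and 3. It was -0.0756, 0.481 and 0.152 in 42FTS 1, 2 and 3. High levels in FBSA, PFPeA 1 and 42FTS 2 were known when the genes were chosen, so nothing is read from the contrast with all genes.

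Counted by whether libraries overlapped, all 3 FBSA libraries were above all 3 controls for 8 of the 9 genes (all but ptgs2b), where 14.5% of all genes were so placed. For PFBS 2 genes were (il1b and mmp13a; 4.95% of all genes), for PFPeA 3 (il1b, ptgs2a and socs3b; 5.8%), and for 42FTS 2 (mmp9 and mmp13a; 4.61%). In 42FTS, ptgs2a was lower than in every control, at 22.7 to 23.9 CPM in 42FTS against 24.0 to 26.1 CPM in Control, which held for 5.15% of all genes.

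**Figure D4:**
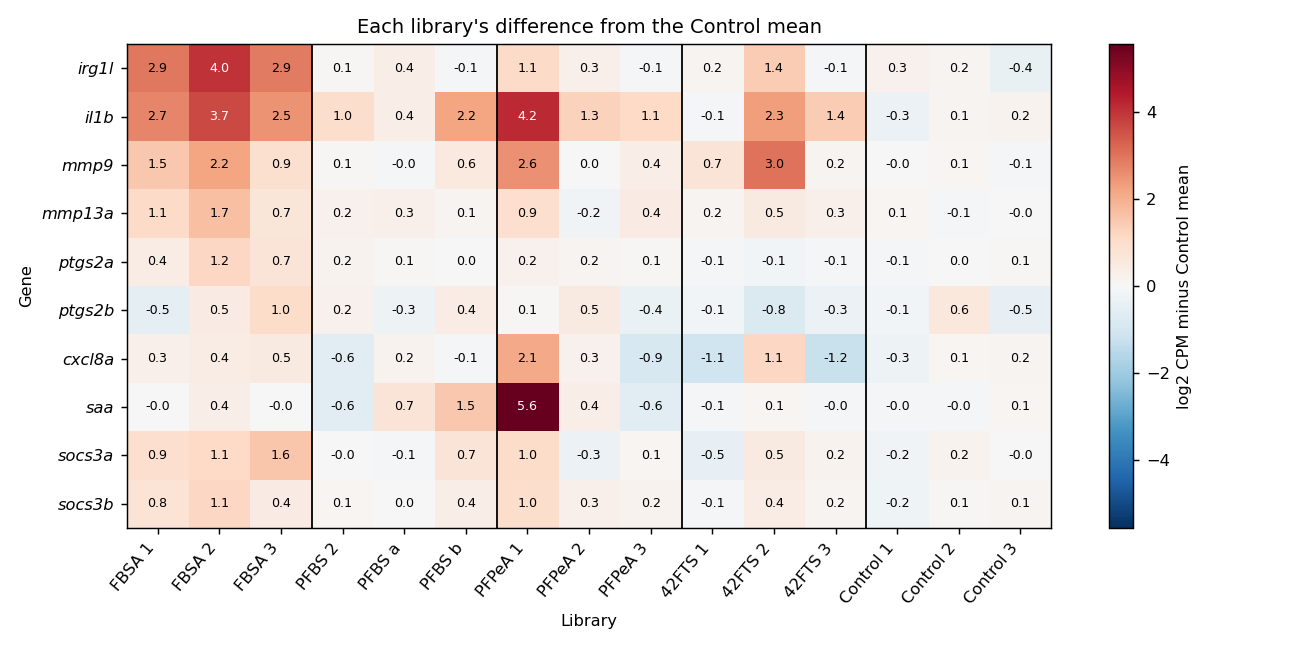
Difference of each library from the mean of the Control libraries, in log2 CPM, for the 10 genes (rows) in the 15 libraries (columns, grouped by compound with Control at the right). Red is higher and blue lower than Control; irg1l is red across FBSA, and the columns of PFPeA 1 and 42FTS 2 differ from their groups in il1b, mmp9 and cxcl8a.

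PFPeA 1 and 42FTS 2 were looked at gene by gene against the other 2 pools of their own groups. In PFPeA 1, 5 of the 10 genes were more than 2-fold above those pools (il1b, mmp9, cxcl8a, saa and socs3a), as were 4.13% of all genes. In 42FTS 2, 4 were (irg1l, il1b, mmp9 and cxcl8a), as were 3.35% of all genes. FBSA 2 had 3 such genes (irg1l, il1b and mmp9), with 4.31% of all genes. PFBS b had 2 (il1b and saa, the latter on 7 reads), with 4.39% of all genes. FBSA 3 had 1 (ptgs2b), with 3.58% of all genes. Of the 12 libraries outside FBSA, PFPeA 1 was the highest for 7 of the 10 genes (il1b, mmp13a, ptgs2a, cxcl8a, saa, socs3a and socs3b) and 42FTS 2 for irg1l and mmp9; PFPeA 1 was the highest of these libraries for 10.9% of all genes and 42FTS 2 for 8.05%. These libraries were named when the genes were chosen, so the counts are a description.

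Relative to the Control mean, PFPeA 1 had 25.4 times the level of il1b, 5.92 times that of mmp9 and 4.35 times that of cxcl8a, but 2.04 times that of irg1l. 42FTS 2 had 8.26 times the Control mean of mmp9, 6.84 times that of il1b and 2.24 times that of cxcl8a, and 2.64 times that of irg1l. In FBSA the fitted level relative to Control was 11.3-fold for il1b, 10.2-fold for irg1l, 3.11-fold for mmp9 and 1.32-fold for cxcl8a. mmp9 was thus above irg1l on this scale in both PFPeA 1 and 42FTS 2 and below it in FBSA. il1b was above irg1l in both of those libraries. In FBSA the order of il1b and irg1l was not settled. Against Control, the confidence interval of the FBSA log2 fold change was 1.33 to 5.66 for il1b and 2.30 to 4.41 for irg1l. The authors' deposited log2 fold changes for FBSA had the reverse order, 2.77 for il1b and 3.27 for irg1l. Ranked by log2 excess over their group's other pools among the 23874 genes, il1b was 60th, cxcl8a 117th and mmp9 126th in PFPeA 1, and mmp9 54th, cxcl8a 81st, il1b 227th and irg1l 371st in 42FTS 2. ptgs2a and ptgs2b had no such excess in either library. They were 29.6 and 9.98 CPM in PFPeA 1 and 22.7 and 5.42 CPM in 42FTS 2.

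A few genes outside the chosen 10, picked after their values were seen, stood out in both libraries. cxcl18b, a chemokine gene of fish, was at 28.0 CPM in PFPeA 1 and 28.1 CPM in 42FTS 2, against 0.563 CPM on average in Control and 4.85 CPM in FBSA. il34, a cytokine of macrophage growth, was at 31.3 and 23.6 CPM in those libraries, against 4.26 CPM on average in Control. slc2a6, a sugar transporter gene, was at 6.05 and 3.21 CPM, against 0.286 CPM in Control.

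Markers of leukocytes and skin were followed beside these levels. Of 36 macrophage and neutrophil markers, all had an entry, 33 passed the filter and none was at 0 in all libraries. Their summed level spanned 1655 to 2103 CPM in FBSA. It spanned 1359 to 1869 CPM in PFBS, 1453 to 1721 CPM in PFPeA and 1582 to 1708 CPM in 42FTS, and 1482 to 1690 CPM in Control. PFPeA 1 had 1624 CPM and 42FTS 2 had 1582 CPM, both within the Control range. The median log2 difference of the 33 markers from the Control mean was 0.284, 0.421 and 0.236 in FBSA 1, 2 and 3, 0.0435 in PFPeA 1 and -0.0404 in 42FTS 2. Of 35 epidermal markers, 34 had an entry and none was at 0 in all libraries. Their summed level was 12390 to 15140 CPM in FBSA, 15330 CPM in PFPeA 1, 14330 CPM in 42FTS 2 and 11350 to 16500 CPM in Control. The part of leukocyte number in the FBSA levels was not tested.

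Correlations among the 9 genes depended on which libraries were included. Over the 36 pairs of these genes, the median Pearson correlation of log2 CPM was 0.663 over all 15 libraries, where r ran from -0.165 to 0.948. The median was 0.556 over the 12 outside FBSA, 0.268 over 11 without PFPeA 1, and 0.151 over 10 without PFPeA 1 and 42FTS 2. Pairs with a correlation over 0.5 numbered 25, 20, 9 and 3 in the same order. irg1l and ptgs2a correlated at 0.86 over 15 libraries and at -0.05 over the 12 outside FBSA, and irg1l and mmp9 at 0.884 over those 12, at 0.844 without PFPeA 1 and at -0.0139 without PFPeA 1 and 42FTS 2. The points share group, depth and the handful of high libraries, so these are descriptions of these libraries only. The libraries left out were known to be high when the genes were chosen, so nothing is read from the fall in correlation without them. Correlations over pairs of all genes were not computed. The within-group SD of log2 CPM was 0.977 for mmp9, 0.56 for irg1l and 1.08 for il1b. That was above the SD of 99.2%, 95.6% and 94.1% of genes of like level. For the rest of the 9 this share ran from 81.3% (ptgs2a) to 94.7% (ptgs2b). High single libraries were known when the genes were chosen, which favours a large spread, so nothing is read from these shares.

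The genes whose log2 CPM followed irg1l most closely over the 15 libraries, of 13264 ranked, were dars (r = 0.985), gldc (r = 0.976), foxn4, hibadha, slc16a6b, slc7a3a, desma, dlb, palld and dla. They include an aminoacyl-tRNA synthetase gene (dars), a glycine cleavage enzyme gene (gldc), a transporter gene of cationic amino acids (slc7a3a), a muscle filament gene (desma) and Notch ligand genes (dla and dlb). gldc was at 66.5 CPM on average in FBSA and 20.8 CPM in Control, and dars at 216.7 CPM in FBSA and 163.0 CPM in Control. Over the 15 libraries irg1l mainly sets FBSA apart, so a high r can go with any clean FBSA difference, small ones included. Taken on deviations from the group means, the closest were onecutl (r = 0.938), fam124a (r = 0.917), clec14a, stx11a, sec31b, dars, casp8, snap23.2, nr2e1 and hibadha. Of these, dars and hibadha appear by both measures, and none is among the 10 genes described here. Both rankings take the highest of 13264 correlations and were not tested.

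Length-scaled values place the genes beside each other. In the authors' deposited TPM, which cover 7 of the 10 genes, irg1l averaged 38.0 ± 18.8 TPM in FBSA and 4.07 ± 0.686 TPM in Control (SD, n = 3 each). ptgs2a averaged 27.0 ± 7.22 TPM in FBSA and 16.2 ± 0.654 TPM in Control, and socs3b averaged 16.1 ± 4.07 TPM in FBSA and 9.82 ± 1.39 TPM in Control. The metalloproteinase genes averaged 13.8 ± 4.27 TPM (mmp13a) and 11.0 ± 5.13 TPM (mmp9) in FBSA, against 7.76 ± 0.517 TPM (mmp13a) and 3.92 ± 0.256 TPM (mmp9) in Control. The lowest were socs3a, with 7.05 ± 1.78 TPM in FBSA and 3.27 ± 0.426 TPM in Control, and il1b, with 1.29 ± 0.587 TPM in FBSA and 0.197 ± 0.0503 TPM in Control. By TPM irg1l was thus the highest of the 7 in FBSA, whereas in Control ptgs2a, socs3b and mmp13a were above it. In 42FTS 2 mmp9 reached 31.2 TPM, above every other mmp9 value.

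The authors' deposited table of differential expression, which keeps only genes with a q-value (Q) under 0.05 for FBSA, lists those same 7 genes. It gives irg1l a log2 fold change of 3.27 (Q = 2.73e-12) and mmp9 one of 1.54 (Q = 0.00323). For mmp9 this is past the threshold there and not in the edgeR fit of all 15 libraries. The edgeR fit without PFPeA 1 and 42FTS 2 did call mmp9 for FBSA (quasi-likelihood adjusted p = 0.0106). Its log2 fold change stayed at 1.64, and its SE was 0.31 in place of 0.84. Both libraries, and the FBSA levels, were known to be high when the genes were chosen, so nothing is read from this call. For PFBS, PFPeA and 42FTS the authors' deposited table gives these genes Q values of 0.472 to 1, the lowest being il1b in PFPeA. Its log2 fold change of mmp13a for PFBS was -0.07, against 0.23 in the edgeR fit. Some separations of the acids from Control in CPM were absent from the deposited TPM. There PFBS overlapped Control in il1b and mmp13a, PFPeA in ptgs2a and socs3b, and 42FTS in ptgs2a. il1b in PFPeA, and mmp9 and mmp13a in 42FTS, stayed above Control. In the authors' deposited enrichment table for FBSA, response to bacterium held irg1l, il1b and mmp9 among 9 changed genes of 46 (Q = 0.183), fin regeneration held il1b and mmp9 among 15 of 74 (Q = 0.0432), and inflammatory response held il1b and ptgs2a among 13 of 145 (Q = 0.614).

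Entries close to the chosen genes were looked at beside them. irg1, the other zebrafish gene of this name, had 3, 28 and 20 reads in FBSA 1, 2 and 3, 11 in PFPeA 1, 22 in 42FTS 2 and 0 to 3 in each of the other 10 libraries, Control included. FBSA 1, which had high irg1l and mmp9, was thus no higher in irg1 reads than the low libraries. tnfa, the gene of tumour necrosis factor, had 11 reads in PFPeA 1 and 0 to 2 in every other library. il6 had 0 to 2 reads everywhere, so that no difference was detectable at this depth. il11a, a cytokine gene of the same receptor family as il6, had 34, 39 and 16 reads in FBSA 1, 2 and 3, 3, 5 and 18 in PFBS 2, a and b, 12, 5 and 6 in PFPeA 1, 2 and 3, 2, 2 and 4 in 42FTS 1, 2 and 3, and 0, 5 and 6 in the controls. PFBS b exceeded FBSA 3, so FBSA and PFBS overlapped in il11a. cxcl8b.1, another cxcl8 gene, was not high in PFPeA 1 or 42FTS 2. It had 9, 16 and 24 reads in PFPeA 1, 2 and 3, and 14, 10 and 7 in 42FTS 1, 2 and 3. FBSA 1, 2 and 3 had 8, 23 and 8 reads of it, PFBS 2, a and b 6, 7 and 15, and the controls 18, 11 and 11. Its log2 fold change for FBSA against Control was -0.12 (SE 0.56). mmp13b had 12 reads in PFPeA 1, 11 in 42FTS 2 and 0 to 6 in every other library.

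Pathway lists around these genes, without the 10 themselves, were counted for each compound against Control. For PFBS, PFPeA and 42FTS, edgeR called 0 genes in each of the 11 lists; DESeq2 called 1, a macrophage and neutrophil marker in 42FTS. For FBSA the counts below stand beside 5.28% of all genes higher and 4.25% lower, and each is followed by its range when any single library was left out. Those shares belong to the fit of all 15 libraries, which called 2274 genes in either direction. With 1 library left out the number ran from 1020 (without FBSA 2) to 2274 (without PFPeA 1). It was 1296 without Control 1 and 1309 without Control 2, so the low ends of the ranges have a lower share beside them. FBSA was the group the 10 genes were chosen on, and the lists were chosen with earlier results known. The counts and the adjusted p-values below therefore describe its profile around the 10 genes and are not tests.

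Among the signals, 4 of 23 cytokine and chemokine genes were higher in FBSA (1 to 4), with a median log2 fold change of 0.238. The median of this list was higher for PFPeA, at 0.368, and was 0.0716 for PFBS and 0.194 for 42FTS. As a difference from the Control mean it was 0.438, 0.131 and 0.081 in PFPeA 1, 2 and 3. In FBSA 1, 2 and 3 that difference was 0.228, 0.336 and 0.22. Of receptor genes 4 of 28 were higher in FBSA (1 to 4), with a median of 0.272. cxcl12a, a chemokine that guides migrating cells, averaged 74.0 ± 5.65 CPM in FBSA and 56.4 ± 2.95 CPM in Control, and il10rb, a subunit of the interleukin-10 receptor, 37.4 ± 3.22 CPM in FBSA and 28.8 ± 1.68 CPM in Control. Of JAK-STAT genes 5 of 23 were higher (4 to 6), with a median of 0.199. cish, another feedback inhibitor of the SOCS family, averaged 20.1 ± 2.28 CPM in FBSA and 6.87 ± 1.60 CPM in Control, a log2 fold change of 1.55 (edgeR adjusted p = 0.000406). socs1a, of the same family, averaged 3.57 ± 0.761 CPM in FBSA and 1.16 ± 0.169 CPM in Control, and irf9, a partner of STAT proteins in interferon signalling, 10.7 ± 2.79 CPM in FBSA and 4.70 ± 1.12 CPM in Control. Of the NF-kB and inflammasome list, 2 of 30 genes were higher in FBSA (0 to 4), with a median of 0.326. The 0 was seen without Control 2 or Control 3 and the 4 without PFPeA 1 or 42FTS 2. The median of this list was 0.0763 for PFBS, 0.104 for PFPeA and 0.296 for 42FTS. As a difference from the Control mean it was 0.122, 0.381 and 0.111 in 42FTS 1, 2 and 3. In FBSA 1, 2 and 3 that difference was 0.0996, 0.432 and 0.109.

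Among the effector lists, 2 of 15 prostanoid and leukotriene synthesis genes were lower in FBSA and none higher (0 to 2 lower), with a median of 0.239, so the calls and the median differ in sign. Of metalloproteinases, their inhibitors and related genes, 2 of 24 were higher (1 to 2), with a median of 0.0225, of which lgals3b encodes a galectin and adam8a a membrane protease. Acute-phase genes gave 3 of 21 higher (1 to 4), with a median of 0.296. c3a.1, a complement component gene, averaged 598.1 ± 67.8 CPM in FBSA and 334.9 ± 22.8 CPM in Control, a log2 fold change of 0.84 (edgeR adjusted p = 0.00509). Immediate early and AP-1 genes gave 9 of 31 higher (3 to 12), with the largest list median outside the 10, 0.537. cebpd, a transcription factor gene of the acute-phase response, averaged 89.9 ± 13.5 CPM in FBSA and 41.9 ± 1.98 CPM in Control, and egr2a, an early growth response factor gene, 7.57 ± 0.620 CPM in FBSA and 4.46 ± 0.334 CPM in Control. Of itaconate and neighbouring citric acid cycle enzyme genes 1 of 24 was higher and 1 lower (0 to 1 higher, 0 to 2 lower), with a median of -0.0518.

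Of macrophage and neutrophil markers 4 of 33 were higher (1 to 4), with a median of 0.267; cebpa, a transcription factor gene of myeloid cells that is also expressed in liver, averaged 51.0 ± 4.37 CPM in FBSA and 38.3 ± 2.83 CPM in Control. Of epidermal markers 14 of 32 were higher and 2 lower (10 to 15 higher, 2 lower throughout), with a median of 0.336. anxa1b, an annexin gene of the outer skin layer, averaged 165.6 ± 4.91 CPM in FBSA and 60.2 ± 4.52 CPM in Control, a log2 fold change of 1.46 (edgeR adjusted p = 6.48e-06). lye averaged 164.8 ± 32.9 CPM in FBSA and 81.3 ± 5.24 CPM in Control, and cldne, a claudin gene of the surface layer, 222.2 ± 51.4 CPM in FBSA and 112.4 ± 7.94 CPM in Control. The summed epidermal level, by contrast, overlapped between FBSA and Control, as given above.

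The list genes given with values above, and lgals3b, kept edgeR's call when any single library was left out; adam8a did not. Of the 33 list genes that the naming rule took, 14 kept it throughout and 19 lost it in at least 1 such fit. In the authors' deposited transcription factor table for FBSA, factors were looked up by name. NF-kB1 (p105) had a ratio of observed to expected network objects of 3.396, over 25 observed objects. The other NF-kB entries that were looked up had lower ratios: 1.815 for c-Rel, 1.811 for NF-kB1 (p50), 1.569 for RelB and 1.405 for RelA, the last over 215 objects. C/EBPbeta had a ratio of 2.024 and STAT3 one of 1.577. The remaining factors looked up ran from 1.227 for the glucocorticoid receptor (GCR) to 2.079 for STAT5A. Ratios over all deposited factors were not summarized.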

How the data were processed

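Messenger RNA was measured in 15 pools of whole zebrafish embryos, 3 per group. The submitters' processing notes name HISAT2, HTSeq, Bowtie2, RSEM, DESeq2 and the build GRCz11, but no strand setting for the counting is given there. The authors deposited raw counts of reads for each gene, and, per the file headers, a table with TPM per sample, log2 fold changes and q-values for genes with an FBSA q-value under 0.05. Their deposited enrichment tables hold a p-value and a q-value for each Gene Ontology term and an observed-to-expected ratio per transcription factor. Of the per-sample columns there, 30 were not used. A pair of PFBS columns carried the same name in the counts and are called PFBS a and b here. Reads per library, 24249287 to 32686343 in genes, set the counting error, which is largest for il1b, cxcl8a and saa.

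Counts were filtered with filterByExpr (minimum count 10), scaled by TMM and fitted in R 4.3.3 with edgeR 4.0.16 by a quasi-likelihood model of group over all 15 libraries. Contrasts were tested two-sided, with Benjamini-Hochberg adjustment over 23874 genes and a threshold of 0.05. Log2 CPM used a prior count of 2. Lines of the table that name no gene stayed out; they held 33.4% to 36.3% of reads. The fit was tested on simulated data. Alternatives were RLE size factors, DESeq2 1.42.0, no filter, the 2 groups alone, a replicate block, suffixed entries added to their stem, and leaving out libraries. No pair of libraries within a group agreed within sampling noise. The genes, the lists and the tests were chosen with earlier results of these data known. List genes were named by rule as the up to 4 largest changes past the threshold in a list, among genes with a mean of at least 1 CPM. Values are printed only for genes that kept the call without any 1 library. lgals3b and anxa2a kept it too, and their values are not printed. Genes most like irg1l were the 10 of highest correlation.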

Additional observations from a re-analysis of the deposited data

How the results depend on the processing

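Counts over all genes, in either direction, are given in brackets. Of the 9 genes tested, edgeR called 6 higher for FBSA against Control (2274 of 23874). It called 3 with no filter on low counts (1954 of 34618) and 3 with a replicate block (2035 of 23587). Without Control 3 and 42FTS 2 together it called 2 (1228 of 24290). Leaving out 1 library at a time gave 2 to 6, the 2 without FBSA 2 (1020 of 24355). Against PFBS 3 were called (2423 of 23874), but 5 by DESeq2 (3343 of 21159) and 1 with the 2 groups alone (934 of 22611). There were 6 without PFPeA 1 and 42FTS 2 together (2291 of 24305), and 2 to 5 without any 1 library (1159 to 2451 genes). Against PFPeA 2 were called (1971 of 23874), but 0 with the 2 groups alone (438 of 22538). There were 5 without PFPeA 1 and 42FTS 2 (1508 of 24305), and 2 to 4 without any 1 library (787 to 1923 genes). Against 42FTS 3 were called (2339 of 23874), but 5 by DESeq2 (3207 of 21159) and 1 with the 2 groups alone (788 of 22681). There were 6 without PFPeA 1 and 42FTS 2 (1506 of 24305), and 2 to 5 without any 1 library (999 to 2336 genes). The 2 groups alone leave fewer libraries to estimate the spread, and the cause of the other changes was not tested. irg1l was called against Control in 23 of 23 alternatives, at log2 fold changes of 2.89 to 3.56; against PFPeA and 42FTS it lost the call with the 2 groups alone (edgeR adjusted p = 0.0573 for PFPeA and 0.0787 for 42FTS). Against Control, ptgs2a was called in 22 of 23 alternatives, mmp13a in 21, socs3a in 15 and il1b and socs3b in 11 each. mmp9 was called in 1, the fit without PFPeA 1 and 42FTS 2 together, and ptgs2b and cxcl8a in 0. The genes were chosen with FBSA levels known, and the alternatives refit the same libraries. These counts therefore describe how the fits vary and are not separate evidence.

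Replicate numbers did not pair the libraries: the correlation of same-numbered libraries' deviations from their group means was -0.0639 to 0.0857 over 18 pairs, none over 0.1. With the replicate block over the 12 numbered libraries, 3 of the 9 genes and 2035 genes in all were called for FBSA against Control, against 2274 in all without it.

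List names are shortened here and below. The metalloproteinase genes include inhibitors and related genes such as lgals3b and adam8a, and the AP-1 genes include other immediate early list genes such as cebpd and egr2a. Over all genes the main fit called 2274 of 23874 for FBSA against Control. The 2 groups alone gave 855 of 22625, leaving out Control 3 and 42FTS 2 gave 1228 of 24290, and DESeq2 gave 3101 of 21159. RLE size factors gave 2276 of 23874, no filter 1954 of 34618 and the block 2035 of 23587. Leaving out PFPeA 1 and 42FTS 2 gave 2123 of 24305, and adding suffixed entries 2650 of 21341. Counts over the pathway lists for FBSA against Control moved as follows. With the 2 groups alone they were 2 cytokines, 0 receptors, 4 NF-kB genes, 1 metalloproteinase gene, 5 AP-1 genes, 2 macrophage markers, 7 epidermal markers higher and 1 lower, and 0 for prostanoid synthesis and for itaconate enzymes in either direction. Without Control 3 and 42FTS 2 they were 2 cytokines, 1 receptor, 0 NF-kB genes, 1 acute-phase gene, 1 macrophage marker, and 0 prostanoid and 0 itaconate genes lower. DESeq2 gave 7 NF-kB genes, 4 metalloproteinase genes, 6 acute-phase genes, 1 JAK-STAT gene lower and 4 itaconate genes lower, and 1 macrophage marker higher for 42FTS against Control. RLE size factors gave 1 NF-kB gene. Without the filter there were 1 NF-kB gene, 2 macrophage markers and 0 itaconate genes lower. The replicate block gave 1 NF-kB gene and 1 JAK-STAT gene lower. Without PFPeA 1 and 42FTS 2 there were 6 NF-kB genes and 1 prostanoid gene lower. With suffixed entries added to their stem, 1 prostanoid and 2 itaconate genes were lower.

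Leaving out 1 library at a time gave 1 to 4 cytokines (1 without FBSA 2 or Control 1), 1 to 4 receptors (1 without FBSA 2 or Control 1), 0 to 4 NF-kB genes, 4 to 6 JAK-STAT genes higher and 0 to 1 lower (1 without PFBS b), 0 to 2 prostanoid genes lower (0 without FBSA 1 or Control 1), 1 to 2 metalloproteinase genes (1 without FBSA 2, Control 1 or Control 2), and 1 to 4 acute-phase genes (1 without FBSA 1, FBSA 2, Control 2 or Control 3). It gave 3 to 12 AP-1 genes higher (3 without Control 1, 4 without FBSA 2) and 0 to 1 lower, 0 to 1 itaconate genes higher and 0 to 2 lower, 1 to 4 macrophage markers (1 without FBSA 2, PFPeA 2, PFPeA 3, 42FTS 1 or Control 3), and 10 to 15 epidermal markers.

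Small log2 fold changes of the acids changed sign, all without a call. Without Control 3 and 42FTS 2, irg1l was -0.079 for PFBS and -0.16 for 42FTS against Control, ptgs2b -0.12 for PFBS and -0.18 for PFPeA, cxcl8a -1.17 and socs3a -0.11 for 42FTS, and irg1l -0.081 for 42FTS against PFBS and 0.45 for PFPeA against 42FTS. Without PFPeA 1 and 42FTS 2, cxcl8a was -0.23 and socs3a -0.11 for PFPeA against Control, cxcl8a -1.25 and socs3a -0.10 for 42FTS, and irg1l -0.030 for PFPeA against PFBS, -0.081 for 42FTS against PFBS and 0.052 for PFPeA against 42FTS. The block put cxcl8a at -0.16 for 42FTS.

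Leaving out 1 library at a time, irg1l spanned -0.077 to 0.23 for PFBS against Control, -0.025 to 0.58 for PFPeA against PFBS, -0.091 to 0.78 for 42FTS against PFBS and -0.54 to 0.46 for PFPeA against 42FTS. For PFBS against Control, ptgs2b spanned -0.12 to 0.45, cxcl8a -0.36 to 0.035 and socs3a -0.054 to 0.38. For PFPeA against Control, ptgs2b spanned -0.22 to 0.39, cxcl8a -0.22 to 1.47 and socs3a -0.10 to 0.61, with the lowest cxcl8a and socs3a values without PFPeA 1. For 42FTS against Control, cxcl8a spanned -1.25 to 0.40 and socs3a -0.11 to 0.33, the lowest of both without 42FTS 2. The cause was not tested.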
